A study of Macaca mulatta with 16 samples.

Results

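The genes described here are the subunits and inhibitors of the transcription factor NF-kB, together with the cytokine TNF. They are a fixed list of 10 symbols, drawn up by role in the pathway with earlier results of these data known: NFKB1, NFKB2, REL, RELA, RELB, NFKBIA, NFKBIE, NFKBIZ, BCL3 and TNF. A rhesus Ensembl ID was found by symbol for 9 of the 10, and those 9 are rows of a table of 22515 genes. NFKBIZ matched no ID and was not analysed here. All 9 passed the filter on low counts, which left 19199 genes to test.

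RNA-Seq was done on lung tissue of 16 rhesus macaque fetuses, with 1 library for each animal. Preterm controls (n = 4) received no intervention and were delivered at 131 to 135 days of gestation. Term controls (n = 2) also received none and were delivered at 156 and 157 days. The LPS 16h group (n = 4) was delivered 16 hours after 1 mg of bacterial lipopolysaccharide (LPS, a cell wall component of Gram-negative bacteria) was injected into the amniotic fluid, at 130 to 131 days. The LPS 5d group (n = 3) had the same injection and delivery 5 days later, at 131 to 134 days. The LPS + Beta-Ac 5d group (n = 3) had the same LPS and interval, and the dam was also given 0.125 mg/kg of betamethasone-acetate (Beta-Ac), a synthetic glucocorticoid, by intramuscular injection, with delivery at 131 to 132 days. The design asks what intraamniotic LPS does to the preterm lung early and late, and whether Beta-Ac alters it. No saline-injected group and no group with Beta-Ac alone was analysed here.

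NF-kB is a family of dimers built from NFKB1, NFKB2, REL, RELA and RELB. In resting cells the dimers are held in the cytoplasm by inhibitors such as the products of NFKBIA and NFKBIE. LPS, IL-1 and TNF act through receptors and the IKK kinases, the inhibitor is degraded, and the freed dimer enters the nucleus and switches on cytokine, chemokine and adhesion genes. Several of its targets are its own subunits and inhibitors, so the RNA of NFKB1, NFKB2, RELB, NFKBIA, NFKBIE and BCL3 is widely used as a readout of the pathway. RNA levels do not measure where the proteins are or whether they bind DNA. Lung is exposed to amniotic fluid because the fetus breathes it, and its epithelium, endothelium and resident macrophages all use this pathway.

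Total counts on genes were 20169363 to 28348816 in all groups except LPS 16h, whose libraries were deeper at 30596371 to 48052891. The 8 members called at 16 hours were also called when every library was thinned to the smallest total. The surfactant proteins SFTPC (lowest 1797 CPM) and SFTPB (lowest 2588 CPM) were abundant in every animal, and the lung transcription factor NKX2-1 was never below 47.2 CPM. Values below are in CPM, the counts of a gene per 1000000 counts of the scaled library, given for each animal, and the order of animals within a group is by number. The log2 fold changes come from limma on log2 CPM with a prior count of 2, with adjusted p values over all genes tested. A gene was called where the adjusted p was below 0.05 and the change was at least 2-fold. Levels of different genes are not compared, because CPM takes no account of transcript length. In whole lung, more RNA per cell and more cells of a type that holds the RNA cannot be told apart.

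At 16 hours after LPS, NF-kB subunit and inhibitor RNA was higher in every exposed lung. All 9 genes passed the adjusted p of 0.05 in the higher direction, beside 18.5% of all genes tested. Of the 9, 8 were also at least 2-fold higher and so were called, beside 8.25% of all genes, and the exception was RELA. In all 9 the LPS 16h animals lay entirely above the preterm controls, beside 16.9% of all genes. The median log2 fold change of the 9 was 3.08, against -0.09 for all genes tested. At 5 days the levels were close to those of the preterm controls for NFKB1 and RELA and between the controls and 16 hours for the rest. The members' log2 CPM in each animal is plotted by gene.

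**Figure D1:**
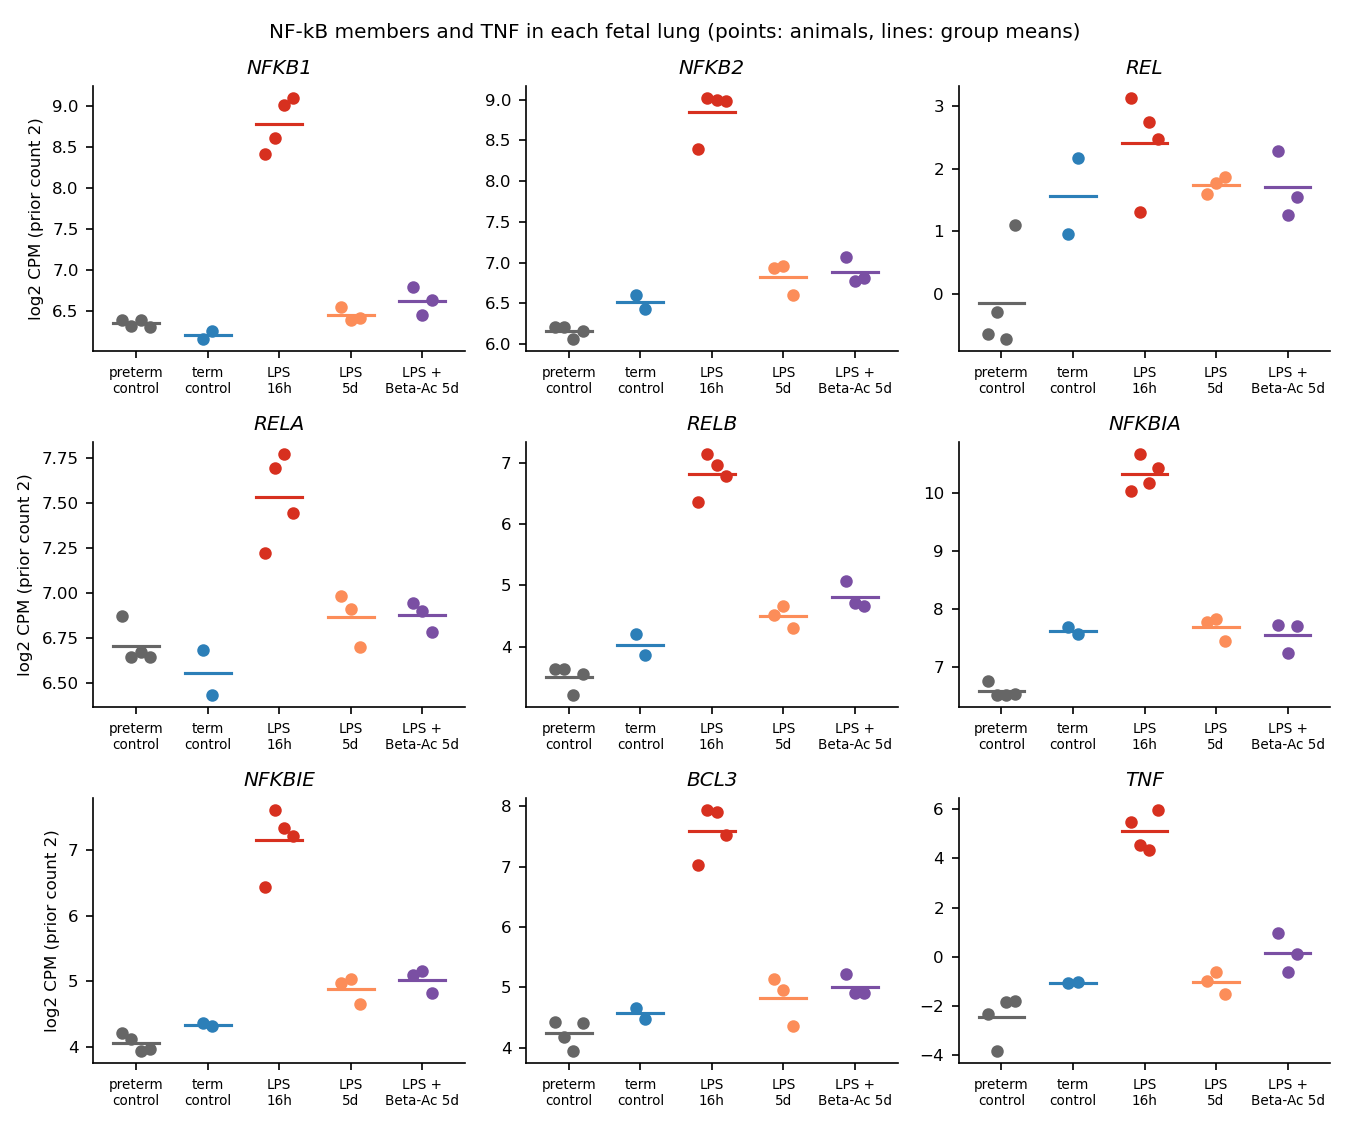
Level of each of the 9 genes (y axis, log2 CPM with a prior count of 2, a separate range for each gene) in each of 16 animals (points) in 5 groups (x axis), with lines at group means. The 4 LPS 16h animals stand above the preterm controls in every panel, and only in the panel for REL do they overlap the animals at 5 days.

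RELA encodes the subunit p65, the main transactivating partner in the canonical dimer. Its level was 117, 99.6, 102 and 100 CPM in the preterm controls and 102 and 86.0 CPM in the term controls. It was 149, 207, 218 and 173 CPM in LPS 16h, 126, 120 and 104 CPM in LPS 5d, and 123, 119 and 110 CPM in LPS + Beta-Ac 5d. The LPS 16h animals were all above every other animal, and the groups at 5 days overlapped the preterm controls. The log2 fold change at 16 hours was 0.82 ± 0.12 (SE; adjusted p = 7.07e-05), or 1.77-fold, below the 2-fold limit. At 5 days it was 0.16, with a 95% interval from -0.12 to 0.43 (adjusted p = 0.479). RELA thus moved less than any other member at 16 hours, by point estimate.

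NFKB1 encodes the precursor of p50, the usual partner of RELA. Preterm controls had 83.2, 79.1, 83.8 and 78.5 CPM, and term controls had 70.9 and 75.9 CPM. LPS 16h animals had 339, 390, 520 and 550 CPM. LPS 5d animals had 93.5, 83.4 and 84.9 CPM, and LPS + Beta-Ac 5d animals had 111, 87.2 and 99.0 CPM. NFKB1 rose 5.43-fold at 16 hours (log2 2.44 ± 0.13, adjusted p = 3.48e-09) and LPS 5d overlapped the preterm controls. The difference left at 5 days was 0.10 on the log2 scale, with a 95% interval from -0.21 to 0.41 (adjusted p = 0.700), which is 4.25% of that at 16 hours.

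NFKB2 encodes p100, the precursor of p52 in the non-canonical pathway and itself an inhibitor of NF-kB dimers. Its level was 73.8, 74.2, 66.8 and 71.7 CPM in preterm controls, and 97.1 and 86.3 CPM in term controls. It was 335, 518, 510 and 504 CPM in LPS 16h, where animal 026 was low. The values were 122, 125 and 97.0 CPM in LPS 5d and 134, 109 and 112 CPM in LPS + Beta-Ac 5d. All LPS-exposed animals were above all preterm controls. NFKB2 rose 6.42-fold at 16 hours (log2 2.68 ± 0.14, adjusted p = 1.54e-09). At 5 days the log2 difference was 0.67 ± 0.15 after LPS (adjusted p = 0.00728) and 0.72 ± 0.15 after LPS + Beta-Ac (adjusted p = 0.00360), both under 2-fold.

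RELB is the subunit that pairs with p52 and with p100. Preterm controls had 12.4, 12.3, 9.19 and 11.6 CPM and term controls had 18.3 and 14.5 CPM. LPS 16h animals had 82.3, 141, 124 and 110 CPM, LPS 5d animals had 22.8, 25.1 and 19.6 CPM, and LPS + Beta-Ac 5d animals had 33.5, 26.3 and 25.3 CPM. No 2 groups overlapped, and the order was preterm, term, LPS 5d, LPS + Beta-Ac 5d and LPS 16h. RELB rose 9.89-fold at 16 hours (log2 3.31 ± 0.17, adjusted p = 1.53e-09). After LPS + Beta-Ac it rose 2.48-fold above preterm controls (log2 1.31 ± 0.18, adjusted p = 0.000227). After LPS alone the log2 difference was 0.98 ± 0.18 (adjusted p = 0.00242), or 1.98-fold, so it missed the call by its fold alone.

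REL encodes c-Rel, a subunit found mostly in lymphoid and myeloid cells. It was the subunit with few counts, 13 to 57 in preterm controls and 51 to 286 elsewhere. Preterm controls had 0.566, 0.741, 0.532 and 2.08 CPM, so animal 209 stood above the other 3. Term controls had 1.88 and 4.43 CPM. LPS 16h animals had 8.66, 2.39, 6.63 and 5.47 CPM, LPS 5d animals had 2.94, 3.34 and 3.56 CPM, and LPS + Beta-Ac 5d animals had 4.82, 2.32 and 2.85 CPM. All LPS-exposed animals were above all preterm controls, while the 3 LPS-exposed groups overlapped each other and the term controls. REL rose at 16 hours (log2 2.56 ± 0.44, adjusted p = 0.000371), after LPS at 5 days (1.89 ± 0.48, adjusted p = 0.0166) and after LPS + Beta-Ac (1.84 ± 0.48, adjusted p = 0.0154). Between 16 hours and 5 days the difference was -0.67, with a 95% interval from -1.69 to 0.36 (adjusted p = 0.307). The calls at 5 days rested on single animals. The adjusted p after LPS was 0.0511 without preterm control 113, 0.0610 without LPS 5d animal 240 and 0.0529 without LPS 5d animal 242, and after LPS + Beta-Ac it was 0.0842 without animal 248. It was also 0.0519 after LPS + Beta-Ac when all libraries were thinned to 1 depth.

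NFKBIA encodes IkBalpha, the inhibitor that is degraded and then resynthesized as an NF-kB target. Preterm controls had 109, 91.9, 91.9 and 92.8 CPM and term controls had 207 and 192 CPM. LPS 16h animals had 1051, 1641, 1161 and 1385 CPM. LPS 5d animals had 219, 228 and 176 CPM, and LPS + Beta-Ac 5d animals had 213, 153 and 211 CPM. Every animal outside the preterm control group was above every preterm control, and the term and 5-day animals overlapped. NFKBIA rose 13.4-fold at 16 hours (log2 3.75 ± 0.15, adjusted p = 2.62e-10). It was still 2.15-fold higher 5 days after LPS (log2 1.10 ± 0.16, adjusted p = 0.000556). After LPS + Beta-Ac it was 1.97-fold higher (log2 0.98 ± 0.16, adjusted p = 0.000703), just under the limit.

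NFKBIE encodes IkBepsilon, which binds RELA and REL dimers. Its level was 18.5, 17.3, 15.3 and 15.6 CPM in preterm controls and 20.6 and 19.9 CPM in term controls. It was 86.1, 194, 161 and 147 CPM in LPS 16h, 31.2, 32.9 and 25.1 CPM in LPS 5d, and 34.0, 35.6 and 28.3 CPM in LPS + Beta-Ac 5d. The 5-day groups were above both control groups and overlapped each other. NFKBIE rose 8.45-fold at 16 hours (log2 3.08 ± 0.19, adjusted p = 1.12e-08). At 5 days the log2 difference was 0.83 ± 0.21 after LPS (adjusted p = 0.0150) and 0.96 ± 0.21 after LPS + Beta-Ac (adjusted p = 0.00485).

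BCL3 encodes an atypical nuclear IkB protein that binds p50 and p52 homodimers. Preterm controls had 21.4, 18, 15.2 and 21.2 CPM, and term controls had 25.2 and 22.2 CPM. LPS 16h animals had 130, 246, 238 and 185 CPM. LPS 5d animals had 35.2, 30.8 and 20.5 CPM, and LPS + Beta-Ac 5d animals had 37.2, 30.1 and 30.0 CPM. LPS 5d animal 242, at 20.5 CPM, lay within the preterm range. BCL3 rose 10.3-fold at 16 hours (log2 3.36 ± 0.20, adjusted p = 8.44e-09). At 5 days the log2 difference was 0.58 ± 0.22 after LPS (adjusted p = 0.0928) and 0.78 ± 0.22 after LPS + Beta-Ac (adjusted p = 0.0233).

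TNF, the cytokine that activates NF-kB through its receptors and is itself a target, was almost absent from the preterm control libraries, with counts of 3, 0, 6 and 6. This corresponds to 0.131, 0, 0.213 and 0.219 CPM, and all 4 were below the filter of 0.371 CPM. Term controls had 11 and 13 counts, or 0.405 and 0.421 CPM. LPS 16h animals had 1266, 886, 880 and 2138 counts, or 44.9, 23.6, 20.4 and 62.2 CPM. LPS 5d animals had 12, 15 and 6 counts, or 0.436, 0.576 and 0.285 CPM. LPS + Beta-Ac 5d animals had 51, 16 and 26 counts, or 1.92, 0.580 and 1.00 CPM. The LPS 16h animals were far above all others, and the lowest LPS + Beta-Ac animal (0.580 CPM) was level with the highest LPS 5d animal (0.576 CPM). With all libraries thinned to 1 depth the counts were 39, 10 and 21 after LPS + Beta-Ac and 10, 15 and 6 after LPS alone, which overlap.

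Pooled over animals, TNF was 241 times its preterm rate at 16 hours (exact 95% interval 146 to 431, 5170 against 15 counts), an interval that covers counting error only. The pooled ratio was 2.95 (1.56 to 5.85) after LPS at 5 days, 7.76 (4.47 to 14.4) after LPS + Beta-Ac and 2.76 (1.39 to 5.66) in term controls. Over animals, the fitted log2 change at 16 hours was 7.53 ± 0.48 (adjusted p = 1.46e-08), a value that depends on the prior count and was 8.29 with a prior of 0.5. After LPS + Beta-Ac, TNF rose above preterm controls (log2 2.60 ± 0.52, adjusted p = 0.00301), but limma-voom, which weights each value by its precision, gave an adjusted p of 0.122. After LPS alone the log2 difference was 1.41 ± 0.52 at 5 days (adjusted p = 0.0850).

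**Figure D2:**
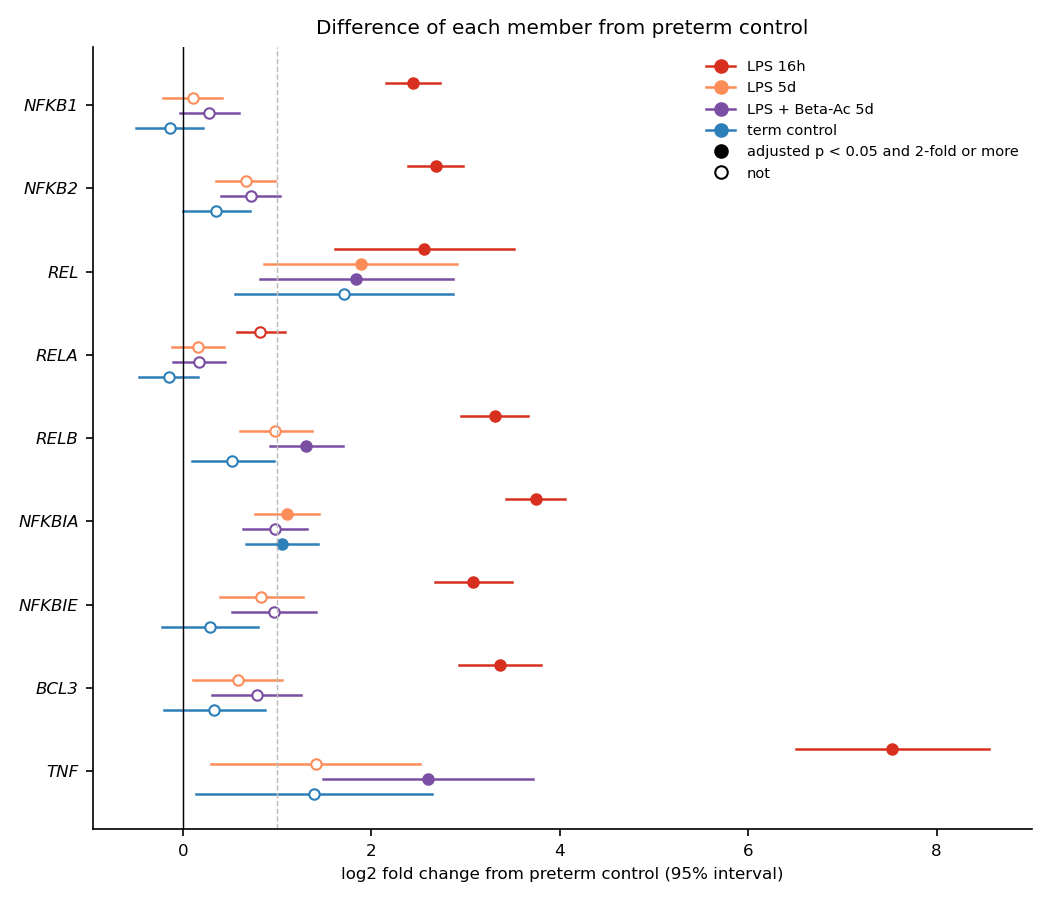
Log2 fold change from preterm controls (x axis, with 95% intervals) for each of the 9 genes (y axis) in 4 comparisons, filled where the gene was called. All points at 16 hours lie right of those at 5 days, from 0.82 for RELA to 7.53 for TNF, and the intervals of REL at 16 hours and 5 days overlap.

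Counted over the members, LPS at 5 days left 2 of 9 genes called higher than in preterm controls, REL and NFKBIA, beside 2.60% of all genes. At the adjusted p alone, 5 of 9 were higher, with NFKB2, RELB and NFKBIE added, beside 5.50% of all genes. In 6 of 9 the LPS 5d animals lay above all preterm controls, beside 13.6% of all genes. After LPS + Beta-Ac, 3 of 9 were called higher, REL, RELB and TNF, beside 4.05% of all genes. At the adjusted p alone there were 7 of 9, all except NFKB1 and RELA, beside 7.14%. In 8 of 9, all but RELA, the LPS + Beta-Ac animals lay above all preterm controls, beside 14.7% of all genes. The median log2 fold change of the 9 was 0.83 after LPS and 0.96 after LPS + Beta-Ac. These 2 comparisons share the preterm controls. The counts of calls at 5 days depended on single animals and ranged from 1 to 3 after LPS and from 2 to 5 after LPS + Beta-Ac when 1 animal was left out. After LPS, RELB was also called without preterm control 092 (log2 1.03), preterm control 101 (1.02) or LPS 5d animal 242 (1.08). After LPS + Beta-Ac, NFKBIA was also called without preterm control 092 (1.04) or animal 249 (1.16), and NFKBIE without preterm control 092 (1.01) or animal 255 (1.06).

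Between the 2 LPS times, 7 of 9 members were called lower at 5 days than at 16 hours, beside 7.94% of all genes, and 8 of 9 passed the adjusted p, beside 19.2%. The genes called were NFKB1 (log2 -2.34 ± 0.15, adjusted p = 3.10e-08), NFKB2, RELB, NFKBIA, NFKBIE, BCL3 and TNF. NFKBIA fell 6.25-fold (log2 -2.64 ± 0.16, adjusted p = 2.05e-08) and BCL3 fell 6.87-fold (log2 -2.78 ± 0.22, adjusted p = 2.61e-07). TNF fell the most on the log2 scale (-6.13 ± 0.52, adjusted p = 4.89e-07). RELA was lower by less than 2-fold (log2 -0.67 ± 0.13, adjusted p = 0.000915), and REL had the wide interval given above, with a difference of -0.43 without LPS 16h animal 026 and -1.04 without animal 029. Fetuses at 16 hours and 5 days also differed in gestation at treatment, 129 to 130 days against 126 to 129 days, and depth followed the group.

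Adding Beta-Ac to LPS called none of the 9 members relative to LPS alone at 5 days (limma), and 0.0885% of all genes were called in either direction. At an unadjusted p under 0.05, 1 member differed, TNF, beside 4.81% of all genes. TNF was higher by 1.19 on the log2 scale with a 95% interval from 0.01 to 2.38 (adjusted p = 1.00), and LPS + Beta-Ac animals had 16 to 51 counts against 6 to 15. Without LPS + Beta-Ac animal 248 the difference was 0.77. In TNF and RELB the LPS + Beta-Ac animals lay above all LPS 5d animals, beside 6.34% of all genes, and for TNF this was lost in the thinned counts given above. RELB was higher by 0.33 (-0.09 to 0.74). NFKBIA, a gene that glucocorticoids are known to induce in other cells, was lower by point estimate, at 192 against 208 CPM (log2 -0.12, 95% interval from -0.48 to 0.24). For NFKB1 the difference was 0.18 (-0.15 to 0.51), for NFKB2 0.05 (-0.29 to 0.39), for RELA 0.01 (-0.29 to 0.30), for NFKBIE 0.13 (-0.34 to 0.61), and for BCL3 0.20 (-0.31 to 0.70). All of these intervals lie inside a 2-fold change in either direction. For REL the interval ran from -1.14 to 1.05 and takes in a 2-fold change in either direction.

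In the term controls, 1 of 9 members was called relative to preterm controls, beside 1.11% of all genes. It was NFKBIA, which was 2.07-fold higher at 199 against 96.4 CPM (log2 1.05 ± 0.18, adjusted p = 0.00708). Without term control 200 the adjusted p was 0.0748, with the remaining term animal assumed to vary like the other groups. In 6 of 9, NFKB2, RELB, NFKBIA, NFKBIE, BCL3 and TNF, both term animals lay above all preterm controls, beside 11.2% of all genes. NFKB1 was the 1 member in which both term animals lay below all preterm controls, beside 15.3% of all genes. Its mean was 73.4 against 81.1 CPM (log2 -0.14, 95% interval from -0.50 to 0.21). REL had a log2 difference of 1.71 ± 0.54 (adjusted p = 0.0948), which became 2.13 with an adjusted p of 0.0181 without preterm control 209, the animal with high REL. Without term control 201 it was 1.11 with an adjusted p of 0.477, and without term control 200 it was 2.32 with an adjusted p of 0.134.

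The subunits and the inhibitor did not move in proportion, as ratios of CPM within each animal show. These ratios were chosen after the values were seen, were not tested, and carry meaning only as changes between groups. The ratio of NFKBIA to RELA was 0.900 to 0.936 in the 4 preterm controls and 5.32 to 8.0 in the LPS 16h animals. It was 1.69 to 1.90 in LPS 5d, 1.28 to 1.92 in LPS + Beta-Ac 5d, and 2.02 and 2.23 in term controls, so term lung had more NFKBIA for its RELA than either 5-day group. The ratio of RELB to RELA was 0.0901 to 0.124 in preterm controls, 0.551 to 0.683 at 16 hours, 0.181 to 0.209 in LPS 5d, 0.221 to 0.274 in LPS + Beta-Ac 5d, and 0.168 and 0.179 in term controls. The ratio of NFKB2 to NFKB1 was 0.798 to 0.937 in preterm controls and 1.13 to 1.49 over the term and 5-day animals. At 16 hours it was 0.988, 1.33, 0.982 and 0.917, so 3 of 4 animals were above every preterm control and 1 was within the range of the 5-day animals.

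**Figure D3:**
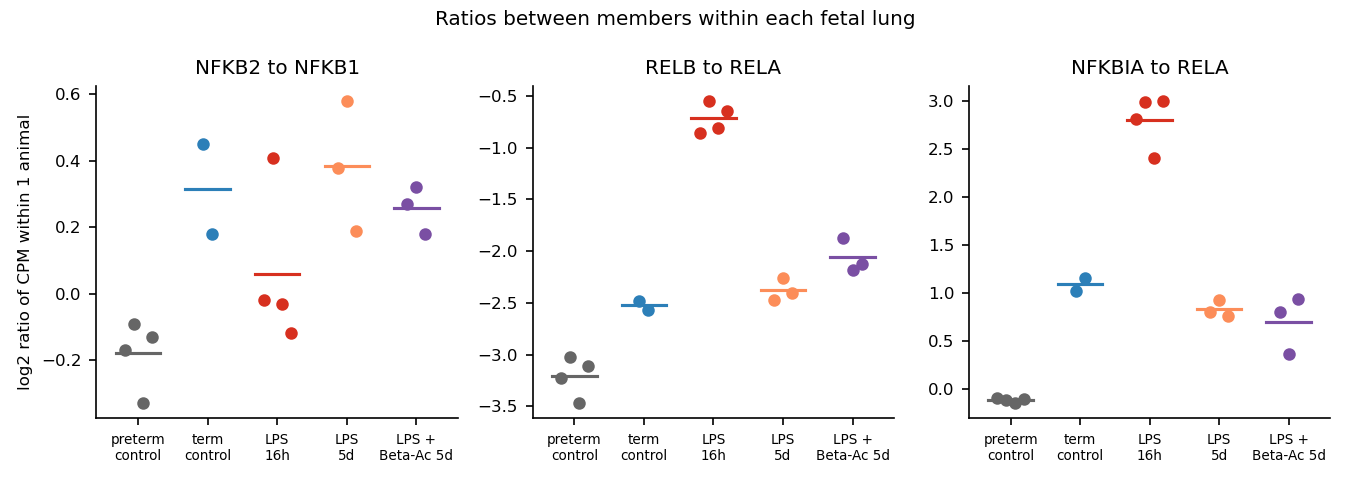
Log2 ratio of the CPM of 2 members within each animal (y axis) for 5 groups (x axis), with lines at group means. The ratio of NFKBIA to RELA is nearly the same in the 4 preterm controls and highest at 16 hours, and that of NFKB2 to NFKB1 is highest in the term and 5-day groups by mean.

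Within groups, the members varied together in part. After group means were removed, the Pearson correlation of log2 CPM over 16 animals was 0.90 for NFKB2 and RELB, 0.89 for NFKB2 and BCL3, 0.87 for RELB and BCL3, and 0.86 for both NFKB2 and NFKBIE and RELA and BCL3. These values share libraries and scaling and are descriptions without a test. REL had values from -0.50 to 0.37 with the other 8 members, and TNF had values from -0.28 to 0.37. NFKB1 had values from 0.31 to 0.62 and NFKBIA from 0.49 to 0.71 with NFKB2, RELA, RELB, NFKBIE and BCL3. In LPS 16h, animal 026 had the lowest level of 7 members (NFKB1, NFKB2, RELA, RELB, NFKBIA, NFKBIE and BCL3), the highest REL and the second highest TNF. In LPS 5d, animal 242 had the lowest level of 7 members (NFKB2, RELA, RELB, NFKBIA, NFKBIE, BCL3 and TNF) and the highest REL. These were also the smallest libraries of their groups, at 30596371 and 20214144 counts. The part of depth in this order was not tested. All 8 calls at 16 hours held without animal 026.

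**Figure D4:**
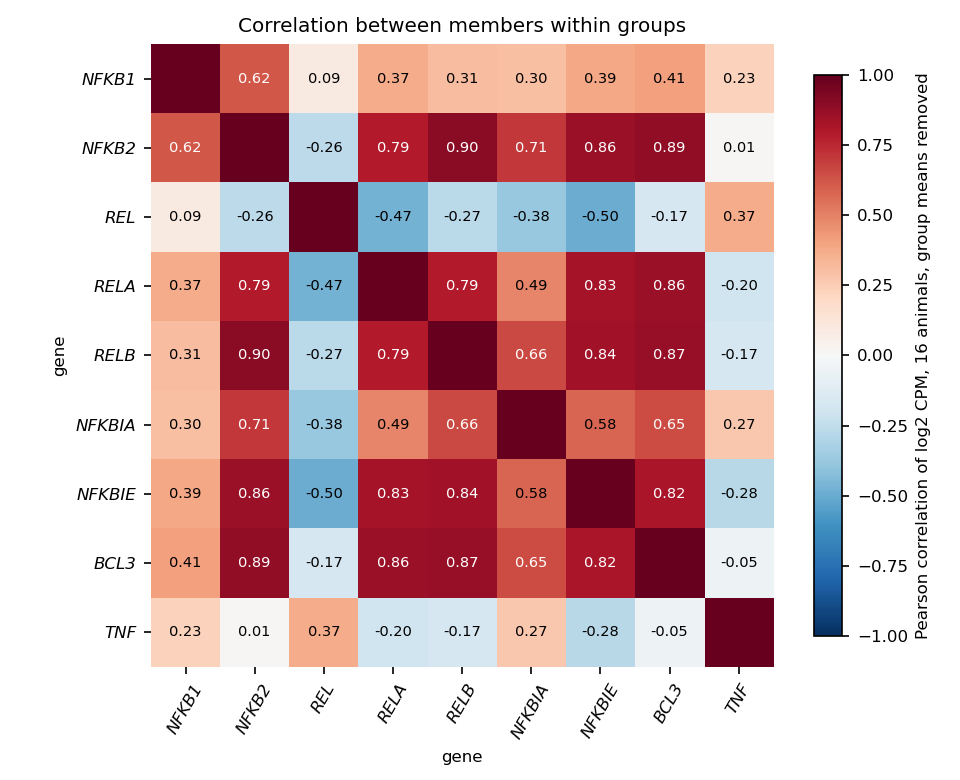
Pearson correlation of log2 CPM between the 9 genes (both axes) over 16 animals after group means were removed, with values printed and colours from -1 to 1. NFKB2, RELA, RELB, NFKBIE and BCL3 have values between 0.79 and 0.90 with each other, and NFKB1, NFKBIA, REL and TNF have lower values with them.

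The 5 genes whose pattern over the 16 animals was most like the mean of the members were TNIP1, SBNO2, NUAK2, SPIB and CD40. Each member was scaled to a mean of 0 and an SD of 1 for this, and the Pearson correlation was 0.99 for the first 4 and 0.98 for CD40. The LPS 16h animals form a cluster apart and set most of these values. With group means removed the values were 0.72 for TNIP1, 0.78 for SBNO2, 0.77 for NUAK2, 0.75 for SPIB and 0.62 for CD40.

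Among 14 other inhibitors of the pathway, 8 were called higher at 16 hours and 1 lower, beside 8.25% higher and 6.11% lower of all genes. The median log2 fold change of the 14 was 1.24. TNIP3 (4.04 ± 0.41, adjusted p = 2.82e-06), TNFAIP3 (3.69 ± 0.16, adjusted p = 4.00e-10) and TNIP1 (2.87 ± 0.12, adjusted p = 2.77e-10) had the largest log2 rises. TNFAIP3 encodes the ubiquitin-editing enzyme A20, and the TNIP proteins bind it. Their mean CPM rose from 4.08 to 69.6, from 44.9 to 586 and from 125 to 923. PDLIM2, which promotes the breakdown of nuclear RELA, fell from 127 to 56.2 CPM (log2 -1.18, adjusted p = 8.79e-05). At 5 days only TNIP3 of the 14 was called, both after LPS (log2 1.77, adjusted p = 0.0158) and after LPS + Beta-Ac (1.72, adjusted p = 0.0150). Of all genes, 2.60% were called higher after LPS and 4.05% after LPS + Beta-Ac. TNFAIP3 was at 54.7 CPM after LPS and 60.9 CPM after LPS + Beta-Ac (adjusted p = 0.311 and 0.134).

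Among 26 genes of the IKK complex and its upstream adaptors, 6 were called higher at 16 hours and none lower. The shares of all genes were 8.25% higher and 6.11% lower. At the adjusted p alone, 13 of 26 were higher, beside 18.5% of all genes, and 1 was lower. The median log2 fold change of the 26 was 0.29. The core genes of the IKK complex had small differences, with log2 0.29 for IKBKB (adjusted p = 0.0297), 0.28 for CHUK (adjusted p = 0.0532) and 0.21 for IKBKG (adjusted p = 0.270). The genes with the largest rises were BIRC3, a ubiquitin ligase of the TNF receptor complex (14.6 to 394 CPM, log2 4.75 ± 0.28, adjusted p = 9.71e-09), and IKBKE, an inducible IKK-related kinase (8.73 to 59.4 CPM, log2 2.76 ± 0.15, adjusted p = 3.48e-09). TRAF3, an adaptor that restrains the non-canonical pathway, rose by 2.36 ± 0.16 (adjusted p = 2.98e-08) and the kinase MAP3K8 by 2.15 ± 0.13 (adjusted p = 6.02e-09). BIRC3 and IKBKE were the 2 of 26 called at 5 days, with log2 1.67 and 1.10 after LPS and 1.55 and 1.31 after LPS + Beta-Ac. The shares of all genes called higher were 2.60% after LPS and 4.05% after LPS + Beta-Ac. At the adjusted p alone, 3 of 26 were higher and 3 lower after LPS, and 5 higher and 3 lower after LPS + Beta-Ac. Of all genes, 5.50% and 7.14% were higher by that rule. CHUK was lower after LPS (log2 -0.47, adjusted p = 0.0156) and after LPS + Beta-Ac (-0.51, adjusted p = 0.00741). TRAF5 was lower by -0.50 (adjusted p = 0.0477) and -0.58 (adjusted p = 0.0203). BIRC3 was the 1 called at term (log2 1.43, adjusted p = 0.0337), beside 1.11% of all genes.

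Among 18 genes of the TNF system, 11 were called higher at 16 hours and none lower, with a median of 1.32. Of all genes, 8.25% were called higher and 6.11% lower. The receptor gene TNFRSF1B rose from 59.4 to 405 CPM (log2 2.77, adjusted p = 2.77e-10), and TNFRSF1A from 136 to 303 CPM (log2 1.14, adjusted p = 4.31e-06). The ligands LTA and LTB, neighbours of TNF in the same gene cluster, rose with log2 3.12 (adjusted p = 3.73e-05) and 2.84 (adjusted p = 1.82e-06). ZFP36, whose product destabilizes TNF RNA, rose from 66.6 to 881 CPM (log2 3.81, adjusted p = 8.69e-06), while ADAM17, the protease that sheds TNF, was at 100 against 75.7 CPM (adjusted p = 0.0745). LTA and LTB were called at 5 days after LPS, beside 2.60% of all genes. LTA, LTB, TNFSF13B and RHBDF2 were called after LPS + Beta-Ac, beside 4.05% of all genes. LTA had low counts, with a mean of 0.112 CPM in preterm controls.

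Among 30 known NF-kB target genes, all 30 were called higher at 16 hours, beside 8.25% of all genes. Their median log2 fold change was 5.61. This list holds inflammatory genes whose response to LPS was known from earlier results of these data, so its direction is no independent evidence. The largest changes were in CXCL8 (0.204 to 576 CPM), IL6 (0.0937 to 174 CPM), IL1A (0.0429 to 123 CPM) and IL1B (1.07 to 1126 CPM). Their log2 fold changes, up to 11.14, depend on the prior count because the controls were near 0. At 5 days 13 of 30 were called after LPS and 18 after LPS + Beta-Ac, and 6 were called at term. The shares of all genes called higher were 2.60%, 4.05% and 1.11% in the same order. MMP9 was at 0.477 CPM in preterm controls, 43.6 CPM after LPS, 190 CPM after LPS + Beta-Ac and 53.9 CPM at term. LCN2 was at 8.09, 144, 251 and 63.5 CPM in the same order. IL6 was at 0.320 CPM after LPS at 5 days (log2 1.23, adjusted p = 0.154), 0.538 CPM after LPS + Beta-Ac (log2 1.75, adjusted p = 0.0384) and 0.887 CPM at term (log2 2.70, adjusted p = 0.0283), against 0.0937 CPM in preterm controls. SOD2, an antioxidant enzyme of mitochondria, was the 1 of 30 called between LPS + Beta-Ac and LPS, beside 0.0885% of all genes. It was at 562 against 187 CPM (log2 1.58 ± 0.16, adjusted p = 0.000735). With only these 2 groups fitted, 0 genes were called in this comparison, so the call of SOD2 was lost. The log2 fold changes of these lists are plotted beside each other for the LPS-exposed groups.

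**Figure D5:**
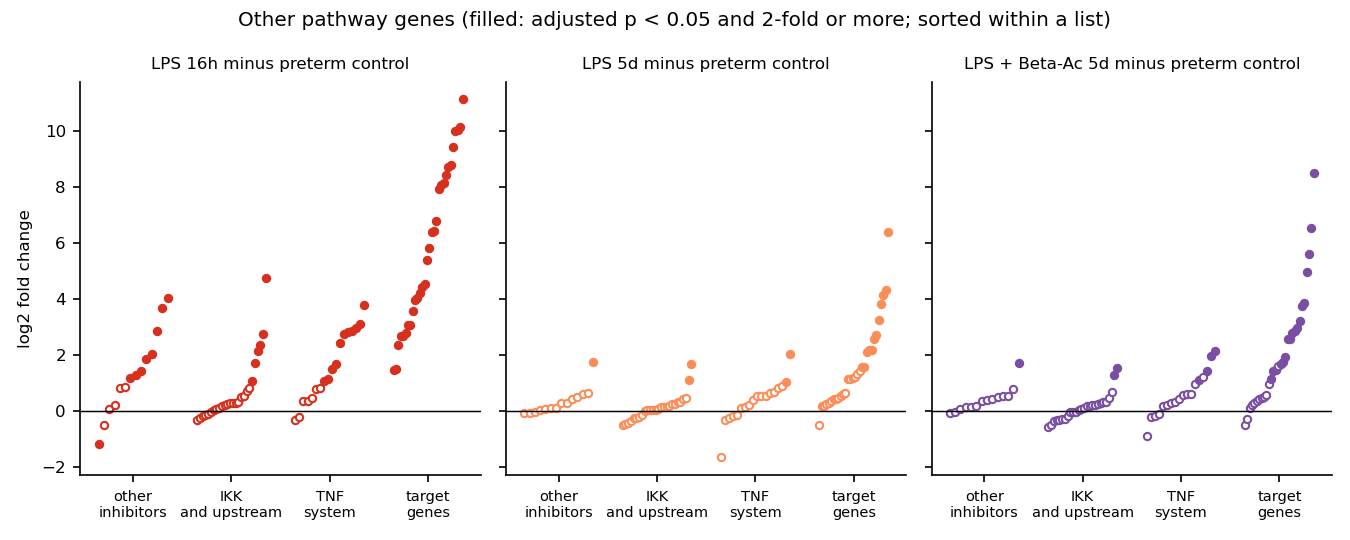
Log2 fold change from preterm controls (y axis) of 14 other inhibitors, 26 IKK and upstream genes, 18 genes of the TNF system and 30 target genes (x axis, sorted within each list), in panels for LPS 16h, LPS 5d and LPS + Beta-Ac 5d, filled where called. At 16 hours all 30 targets are filled and most IKK and upstream genes lie near 0.

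Markers of immune and red blood cells also differed between groups, but not all in the order of the members. The shares of all genes called higher, against which their counts are read, were 8.25% at 16 hours, 2.60% in LPS 5d, 4.05% in LPS + Beta-Ac 5d and 1.11% at term. Of 10 neutrophil markers tested, 7 were called higher at 16 hours, 3 in LPS 5d, 7 in LPS + Beta-Ac 5d and 4 at term. Their summed level was 25.8 to 57.7 CPM in preterm controls, 1530 to 2198 CPM in LPS 16h and 80.0 to 130 CPM in LPS 5d. It was 172 to 374 CPM in LPS + Beta-Ac 5d and 115 to 158 CPM at term. The 3 called in LPS 5d were FPR1 (log2 2.69, adjusted p = 0.00300), S100A9 (1.85, adjusted p = 0.0211) and CSF3R (1.69, adjusted p = 0.0209). MMP8 and S100A12 had at most 2 counts in any preterm control and at most 3 in any LPS 5d animal. At 16 hours MMP8 was at 40.0 to 186 CPM, while the early granule genes MPO and ELANE were at 0.501 and 0.346 CPM on average and were not called. The receptor gene CXCR2 was not called either, at 13.8 CPM at 16 hours against 14.3 CPM in preterm controls (log2 0.08, adjusted p = 0.890). Its mean was higher in LPS 5d (29.9 CPM) and LPS + Beta-Ac 5d (26.6 CPM), also without a call. Of 13 macrophage and monocyte markers, 9 were called higher at 16 hours, 7 in LPS 5d, 11 in LPS + Beta-Ac 5d and 3 at term. Their summed level was 158 to 280, 980 to 1112, 319 to 365, 522 to 939 and 283 to 476 CPM in preterm, LPS 16h, LPS 5d, LPS + Beta-Ac 5d and term lungs. MARCO, a receptor of alveolar macrophages, was at 0 in all preterm controls. Of 12 lymphocyte markers, 1 was called higher at 16 hours, 0 in LPS 5d, 7 in LPS + Beta-Ac 5d and 0 at term. Their summed level was 48.6 to 78.8 CPM in preterm controls, 86.4 to 99.9 CPM in LPS 16h and 80.1 to 103 CPM in LPS 5d. It was 121 to 165 CPM in LPS + Beta-Ac 5d and 86.7 to 118 CPM at term. Of 4 erythroid markers tested, 1 was called lower in LPS 5d than in preterm controls, and their summed level was 22.3 to 77.8 CPM in preterm controls, 39.7 to 106 CPM in LPS 16h, 13.4 to 40.4 CPM in LPS 5d, 56.2 to 62.5 CPM in LPS + Beta-Ac 5d and 15.7 to 23.6 CPM at term. The part of these cells in the levels of REL, TNF and the other members was not tested. The neutrophil, macrophage, lymphocyte and erythroid sums were all higher in every LPS + Beta-Ac animal than in any LPS 5d animal, as was RELB.

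Of 10 genes of the glucocorticoid response, none was called between LPS + Beta-Ac and LPS at 5 days, beside 0.0885% of all genes. By point estimate 7 were higher and 3 lower after LPS + Beta-Ac, with a median log2 difference of 0.08. The largest difference was in DUSP1, which was lower at 180 against 502 CPM (log2 -1.41), without overlap of the animals and without a call. ZBTB16 (log2 -0.70) and KLF9 (-0.20) were also lower. FKBP5, a standard marker of glucocorticoid receptor activity, was at 23.9 against 16.8 CPM (log2 0.51, adjusted p = 0.630) and TSC22D3 at 136 against 124 CPM (log2 0.14, adjusted p = 1.00). At 16 hours after LPS without Beta-Ac, 5 of the 10 were called higher, beside 8.25% of all genes. Among them were MT2A, a metallothionein (1.95 to 401 CPM), and FKBP5 (16.8 to 74.9 CPM, log2 2.14 ± 0.15, adjusted p = 5.29e-08). TSC22D3 was lower by less than 2-fold, at 87.0 against 141 CPM (log2 -0.74, adjusted p = 0.00728). PER1 (log2 0.02), KLF9 (-0.07), DUSP1 (0.60) and SGK1 (0.41) were not called.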

How the data were processed

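The authors extracted RNA from frozen lung, selected poly(A) RNA, sequenced paired ends, assigned reads with kallisto to the rhesus build Mmul_10, and deposited a table of whole-number, unnormalized counts with a row for each Ensembl gene. Software versions, annotation release and strand setting: not given in the sources used here. kallisto divides reads among similar transcripts, and poly(A) selection loses RNA without a tail.

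All 16 libraries (20169363 to 48052891 counts) were grouped by the labels. TMM factors (trimming 30% of log ratios and 5% of mean values) were computed with code of this work's own. Genes with at least 0.371 CPM (10 counts in the median library) in 2 animals and 15 counts in total were kept. Log2 CPM (prior count 2) was fitted with limma 3.58.1 (R 4.3.3; trend and robust options) with 1 mean per group, two-sided, with Benjamini-Hochberg adjustment over 19199 genes. The steps were tested on simulated data. No count model was fitted. Symbols come from a reference table of gene names, which named 17256 of 22515 IDs. No sequence or transcript length was used.

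The members and the gene lists were chosen with earlier results of these data known. Every member is described. From other lists, up to 4 called genes per comparison with the largest changes follow a fixed rule, and other list genes (IKBKB, CHUK, IKBKG, TNFRSF1A, ADAM17, PDLIM2, SFTPC, SFTPB, NKX2-1, TSC22D3, ELANE, S100A12 and those named without a call) were chosen after their values were seen. Alternatives were limma-voom, fits of the groups compared alone, median-of-ratios or total-count scaling, no low-count filter, a prior count of 0.5, no minimum fold and leaving out each animal. Thinning to 1 depth was added after seeing the data, in 1 random draw.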

Additional observations from a re-analysis of the deposited data

Results flagged for a closer look

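In groups of 4 animals, 4 single values stood far from the other 3 by Dixon's test, out of 18 sets of 4 examined. Chance flags about 1 set in 20, but these sets share animals and the genes vary together, so the flags are not independent. Those for RELA and NFKBIA fell on the same animal. REL was at 2.08 CPM in preterm control 209, RELA at 117 CPM and NFKBIA at 109 CPM in preterm control 092, and NFKB2 at 335 CPM in LPS 16h animal 026.

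The difference from preterm controls was not the same at 5 days as at 16 hours after LPS for 8 members, by the direct contrast of the LPS groups (limma, adjusted p below 0.05). The log2 differences of 5 days from 16 hours were -2.34 for NFKB1, -2.01 for NFKB2, -0.67 for RELA, -2.32 for RELB, -2.64 for NFKBIA, -2.25 for NFKBIE, -2.78 for BCL3 and -6.13 for TNF. All 8 were lower at 5 days.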

How the results depend on the processing

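The 8 members called at 16 hours, the 7 called lower at 5 days than at 16 hours, and the absence of calls between LPS + Beta-Ac and LPS did not change in number under any alternative except that of no minimum fold, which gave 9, 8 and 0. With no minimum fold, 5 members passed after LPS at 5 days in place of 2, and 7 after LPS + Beta-Ac in place of 3. With 1 animal left out, the members called were 8 to 8 at 16 hours, 1 to 3 after LPS at 5 days, 2 to 5 after LPS + Beta-Ac, 0 to 2 at term, 0 to 0 between LPS + Beta-Ac and LPS, and 7 to 7 between the LPS times. Between LPS + Beta-Ac and LPS, signs turned with 1 animal left out for NFKB2 (-0.07 to 0.11), REL (-0.34 to 0.18), RELA (-0.07 to 0.07), NFKBIA (-0.24 to 0.04) and BCL3 (-0.03 to 0.36), with an adjusted p of 1.00 wherever the sign turned. Calls that moved with the scaling or the groups fitted were RELB after LPS (1.01 with median-of-ratios factors, 1.02 with only the groups compared) and NFKBIA after LPS + Beta-Ac (1.01 and 1.02), whose main values of 0.98 lay just under the limit of 1. In all, 717 of the alternative values of single members kept their direction and side of the limit, 13 gained a call, 7 lost one and 10 changed sign. The median of all genes at 16 hours was -0.09 with TMM, -0.05 with median-of-ratios factors and -0.29 with total counts, and all 9 members stayed higher under each. Over all genes, the count called at term was 397, against 105 with only the groups compared, 129 without term control 200, and 255, 264 and 239 without preterm controls 092, 101 and 113, and that between LPS + Beta-Ac and LPS was 17, against 3 with limma-voom, 0 with only the groups compared and 2 to 57 with 1 animal left out. No paired analysis was possible because the groups share no animal numbers. The cause of these shifts was not tested. With 2 to 4 animals a group, the number of animals limits the precision, and TNF and REL are also limited by counts.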
